A study of Mus musculus with 2 samples.

Results

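The genes described here are 10 markers of fetal liver and of liver carcinoma, namely Afp, Gpc3, Spink1, Golm1, Cd24a, Igf2bp1, Igf2bp3, Tff3, Ly6d and Scd2, out of 19938 genes that the array measured with a probe set assigned to a single gene. They were taken by symbol from the platform annotation. All 10 were found, on 11 probe sets, because Igf2bp1 had a pair of them. The tissue was hepatocellular carcinoma from mice treated with DEN (diethylnitrosamine, a liver carcinogen that the hepatocyte itself activates). One tumour sample was of the HLF-deficient and 1 of the wild-type (WT) genotype. Whether a sample came from 1 mouse or pooled several tumours or mice is not stated. Both genotypes received DEN, and strain, sex and age are not given in the sources used here. HLF (hepatic leukemia factor) is a PAR bZIP transcription factor, and how its gene was disrupted is likewise not given.

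Oncofetal genes are active in the fetal liver, are silenced in hepatocytes after birth and can be expressed again in liver tumours. Alpha-fetoprotein, the product of Afp, is the classical serum marker of hepatocellular carcinoma, and glypican-3 (Gpc3) is used to stain for it in tissue. The other genes fill varied roles: a secreted protease inhibitor (Spink1), a Golgi membrane protein shed into serum (Golm1), GPI-anchored surface proteins (Cd24a, Ly6d), mRNA-binding proteins of the embryo (Igf2bp1, Igf2bp3), a mucosal peptide (Tff3) and a fatty acid desaturase (Scd2).

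Levels are log2 RMA values, where RMA is a method that joins the probes of a probe set into a single level; each difference is the HLF-deficient level minus the WT level. With 1 array for each genotype there is no spread between mice or between tumours, so no test was possible. A gene was therefore counted by size alone, as higher or lower where its log2 difference reached 1 (2-fold). A gene at a log2 level below 2.96, the floor set by olfactory, vomeronasal and taste receptor genes, was treated as having only an upper bound. Counts and medians below use the measured values, and where a gene below the floor decides a count, the count with values set to the floor is given too. Since the arrays measure bulk tissue, fewer cells of a type and less RNA per cell cannot be told apart. Hlf itself had a level of 3.79 in the HLF-deficient and 5.13 in the WT tumour, a difference of -1.34. Over the 35556 probe sets, taken as a description, the correlation of the arrays was r = 0.986; probe sets share the same RNA and do not replicate each other.

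Of the 10 markers, 5 reached a 2-fold higher level in the HLF-deficient tumour and 0 a 2-fold lower one. Over all 14644 genes compared, 1.5% were higher and 0.362% lower by this rule. With values set to the floor, 205 genes in all were higher and 42 lower, in place of 219 and 53, and the marker counts were the same. The median difference was 1.01 over the 10 markers and 0.07 over all genes compared. The markers and the rule were chosen with earlier results of these data known. The contrast with all genes is therefore a description of a chosen set and no measure of enrichment. The 5 were Spink1, Gpc3, Afp, Cd24a and Igf2bp3. Ly6d stood just short of the rule, Scd2 and Golm1 differed by little, and Igf2bp1 and Tff3 were on the other side of 0.

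**Figure D1:**
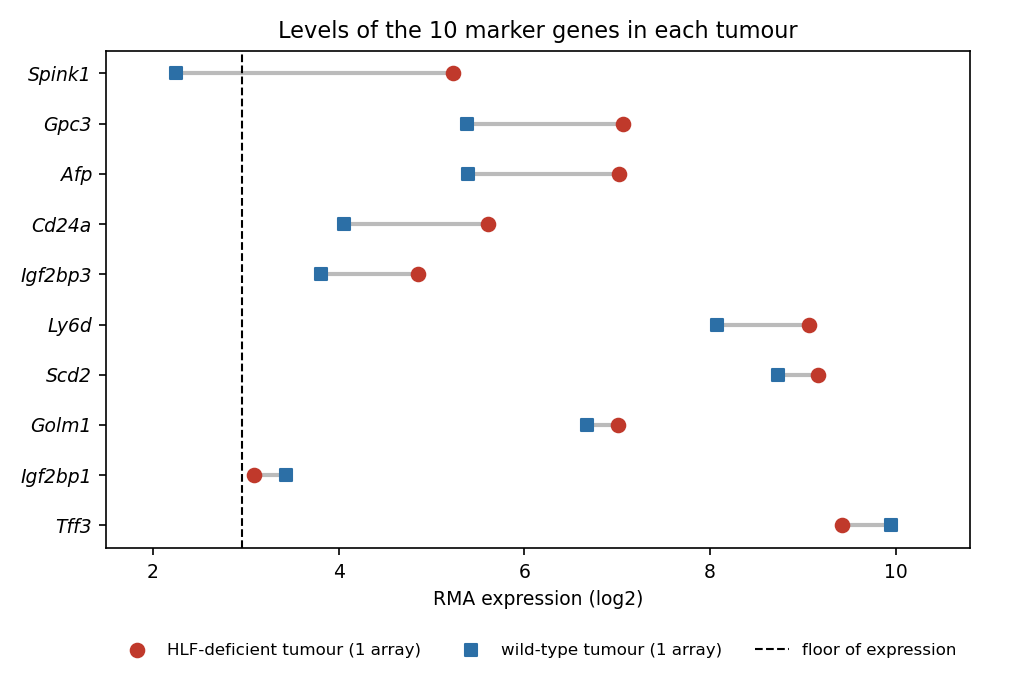
RMA expression (log2, horizontal axis) of each marker in the HLF-deficient tumour (red circles) and the WT tumour (blue squares), 1 array each, ordered by difference; the dashed line is the floor of expression at 2.96. Spink1 is the only marker whose WT value lies below the floor, and Igf2bp1 and Tff3 are the markers with the lower value in the HLF-deficient tumour.

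Sequence before the transcription start is shown for Afp, Gpc3 and Igf2bp3, so that higher markers can be compared for shared motifs; Spink1 and Cd24a, which were also higher, are not shown. The windows are the 250 bases before the annotated start in RefSeq, build GRCm38.p6, read on the gene's own strand. They lie at chr5:90490464-90490713 on the + strand for Afp, at chrX:52613975-52614224 on the - strand for Gpc3 and at chr6:49214955-49215204 on the - strand for Igf2bp3. Capitals mark matches to the motifs searched, which are named after the sequences.
Afp: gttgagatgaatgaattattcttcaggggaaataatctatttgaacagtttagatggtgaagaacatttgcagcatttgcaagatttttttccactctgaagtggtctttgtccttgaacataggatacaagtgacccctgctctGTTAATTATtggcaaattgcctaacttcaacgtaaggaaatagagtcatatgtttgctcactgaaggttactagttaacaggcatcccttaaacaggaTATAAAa
Gpc3: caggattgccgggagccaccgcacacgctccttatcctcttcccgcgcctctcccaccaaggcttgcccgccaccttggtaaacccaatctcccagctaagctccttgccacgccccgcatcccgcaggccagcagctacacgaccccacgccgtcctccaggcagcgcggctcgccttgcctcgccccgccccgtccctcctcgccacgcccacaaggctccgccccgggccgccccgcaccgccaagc
Igf2bp3: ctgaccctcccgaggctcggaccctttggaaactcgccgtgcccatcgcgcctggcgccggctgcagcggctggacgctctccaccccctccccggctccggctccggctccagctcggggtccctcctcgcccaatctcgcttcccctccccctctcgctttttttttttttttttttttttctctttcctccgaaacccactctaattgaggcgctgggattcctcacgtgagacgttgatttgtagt

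The 3 sequences were of different kinds. The Afp window was A/T-rich, with 36% G and C and 1 CpG, against medians of 52.4% and 6 CpG over 32851 windows. The Gpc3 window had 71.6% G and C with 25 CpG, and the Igf2bp3 window 60.4% with 21 CpG. Both strands were searched for PAR bZIP letters (TTACGTAA and TTATGTAA), AP-1 letters (TGACTCA and TGACGTCA), C/EBP letters (TTGCGCAA), HNF1 letters (GTTAATNAT) and the TATA box (TATAAA). The Afp window held GTTAATTAT, a match to the HNF1 letters, at bases 146 to 154, and TATAAA at bases 244 to 249. These motifs were present in 0.737% and 12.4% of all windows. The Gpc3 and Igf2bp3 windows held none of the motifs searched. The remaining window, that of Golm1 on chromosome 13, had 65.6% G and C and a TATA box match on the opposite strand at bases 66 to 71. No match to the PAR bZIP letters stood in these 4 windows, and such letters were rare in general, with TTACGTAA in 0.113% and TTATGTAA in 0.819% of all windows.

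Among the secreted serum markers, Afp and Spink1 were higher in the HLF-deficient tumour and Golm1 was nearly level. Afp (probe set 10523078), a carrier protein of fetal plasma related to albumin, had a level of 7.02 in the HLF-deficient tumour and 5.39 in the WT tumour. The difference of 1.63 is 3.10-fold and ranked 55th among the increases of 14644 genes. Both values lay well above the floor, so Afp was measured in the WT tumour as well.

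Spink1 (probe set 10458704), a Kazal-type inhibitor of trypsin best known from the pancreas, had a level of 5.23 in the HLF-deficient tumour and 2.24 in the WT tumour. The WT value is below the floor, so Spink1 was at least 4.82-fold higher in the HLF-deficient tumour. It was the only one of the 10 markers detected in a single tumour.

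Golm1 (probe set 10409767), a Golgi protein known as a serum marker of liver disease, had a level of 7.01 in the HLF-deficient and 6.68 in the WT tumour. Its difference of 0.34 is 1.26-fold. The SD of a difference within this array pair, estimated from the 2 brightest probe sets of 698 genes, was 0.23, and 2 SD come to 0.46. As deposited, Golm1 lay inside that range; with the arrays centred its difference was 0.46, at its edge. This SD holds no variation between mice. As deposited, 81.6% of all genes compared lay within 2 SD and 11.6% lay above it, so a difference beyond 0.46 was not rare.

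Of the surface markers, Gpc3 and Cd24a were higher by over 2-fold and Ly6d fell marginally short. Gpc3 (probe set 10604576), an X-linked heparan sulfate proteoglycan that binds growth factors and Wnt proteins, had a level of 7.07 in the HLF-deficient tumour and 5.38 in the WT tumour. Its difference was 1.69, or 3.23-fold, and ranked 49th among the increases. The differences of Gpc3 and Afp were close to each other, within the 0.23 above.

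Cd24a (probe set 10362896), a small mucin-like glycoprotein of progenitor cells, B cells and many carcinomas, had a level of 5.61 in the HLF-deficient and 4.06 in the WT tumour. The difference was 1.55, or 2.92-fold, at rank 61. Ly6d (probe set 10429520), a Ly6-type surface protein of squamous epithelia and B cell precursors, had a level of 9.07 in the HLF-deficient and 8.08 in the WT tumour. Its difference of 0.99 is 1.98-fold, at rank 228. With the arrays centred on their medians it was 1.11, past the rule, and after quantile normalization 0.86.

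The Igf2bp genes encode fetal mRNA-binding proteins that stabilise and localise transcripts. The 2 measured members differed in the sign of their difference, which for Igf2bp1 was small. Igf2bp3 (probe set 10544610) had a level of 4.85 in the HLF-deficient tumour and 3.81 in the WT tumour. The difference was 1.04, or 2.06-fold, the smallest of the 5 counted, at rank 196. Igf2bp1 (probe set 10390211) had a level of 3.09 in the HLF-deficient and 3.44 in the WT tumour, a difference of -0.35, with both values close to the floor. That difference lay inside the 0.46 that marks 2 SD within the array pair. Genes within 0.5 of the mean level of Igf2bp1 had a median difference of -0.19. The other Igf2bp1 probe set was below the floor in both tumours, at 1.52 in the HLF-deficient and 1.70 in the WT one.

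The remaining markers, a mucosal peptide and a lipid enzyme, were clearly expressed in both tumours. Tff3 (probe set 10449657), a trefoil peptide secreted by goblet cells and reported in liver tumours, had a level of 9.43 in the HLF-deficient and 9.95 in the WT tumour. Its difference of -0.52 is 1.44-fold lower, beyond the 0.46 that marks 2 SD within the array pair; with the arrays centred it was -0.40, inside it. Scd2 (probe set 10463355), the stearoyl-CoA desaturase typical of brain and of fetal and neonatal liver, had a level of 9.16 in the HLF-deficient and 8.73 in the WT tumour, a difference of 0.43, inside that range; with the arrays centred it was 0.55, outside it.

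**Figure D2:**
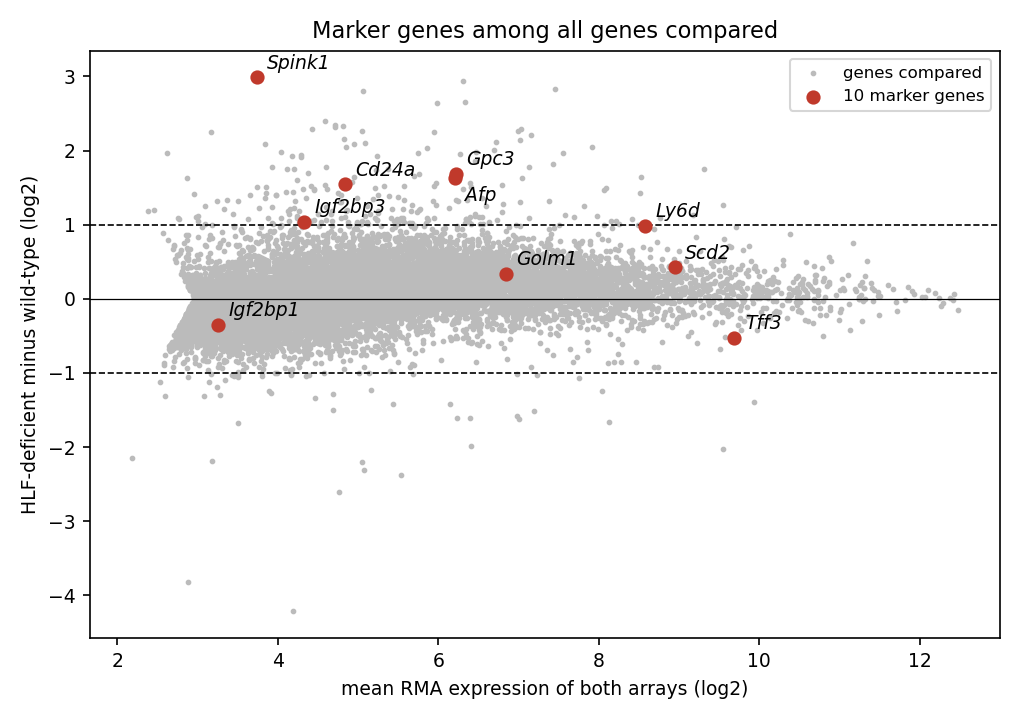
Difference HLF-deficient minus WT (log2, vertical axis) against the mean level of both arrays (log2, horizontal axis) for the 14644 genes compared (grey) and the 10 markers (red); dashed lines mark 2-fold. Spink1, Gpc3, Afp, Cd24a and Igf2bp3 lie above the upper line, and Ly6d lies at it; the Spink1 point uses a WT value below the floor.

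No marker changed sign between the scalings, and Spink1 and Gpc3 kept the highest differences, while Cd24a stood above Afp after quantile normalization and loess. The median difference of genes depended on level. It was 0.24 over the 2421 genes within 0.5 of the mean level of Afp and -0.03 over the 3254 genes within 0.5 of the mean level of Igf2bp3. With this trend removed by loess, Afp differed by 1.47, Gpc3 by 1.52, Cd24a by 1.51 and Igf2bp3 by 1.09. Golm1 came down to 0.17 and Scd2 to 0.31, while Tff3 was at -0.62 and Igf2bp1 at -0.19.

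**Figure D3:**
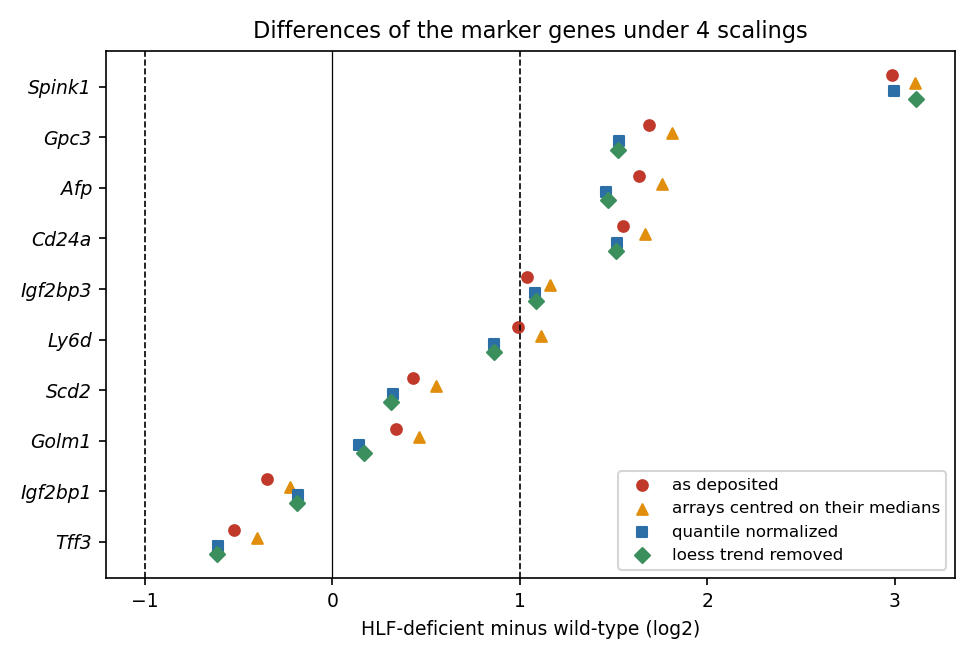
Difference HLF-deficient minus WT (log2, horizontal axis) of each marker with the values as deposited, with arrays centred, after quantile normalization and after removal of a loess trend; dashed lines mark 2-fold. The same 5 markers are past the upper line under each of these scalings, and Ly6d is past it with centred arrays alone, at 1.11.

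Each marker was next set beside the genes next to it on its chromosome, 5 on each side in the RefSeq gene order. Of the 70 such neighbours above the floor in at least 1 tumour, by measured values 1 was higher and 2 were lower by 2-fold, and their median was -0.06. With values set to the floor, 0 were higher and 1 was lower, since 2 of these 3 genes lay below the floor in 1 tumour. Afp lies between Alb and Afm, 2 other genes of the albumin family, which in the adult liver are expressed strongly. Alb had a level of 12.41 in the HLF-deficient and 12.55 in the WT tumour, and Afm 9.66 in the HLF-deficient and 9.69 in the WT tumour. Both were thus slightly lower, by -0.15 and -0.03 (Afm was at 0.10 with the arrays centred), and 0 of these 2 reached 2-fold. Both differences lay inside the 0.46 that marks 2 SD within the array pair. Albfm1, a further gene of this family beyond Afm, was at 6.08 in the HLF-deficient and 6.66 in the WT tumour. Its difference of -0.59 was outside that range and the lowest among the compared neighbours of Afp.

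Gpc3 has another glypican gene, Gpc4, as its neighbour, at 7.16 in the HLF-deficient and 6.86 in the WT tumour. Scd2 lies among its paralogues: Scd1, the main desaturase of adult liver, was at 11.52 in the HLF-deficient and 11.43 in the WT tumour, and Scd3 differed by 0.34. The neighbours of Tff3 include Tff2 and Tff1, which differed by -0.12 and -0.22. The sign of Tff2 changed with the scaling, to 0.04 after quantile normalization. Beside Ly6d, the related genes Lynx1, Slurp2, Lypd2 and Ly6k had differences of 0.04, -0.24, -0.29 and -0.59. The 1 neighbour higher by its measured values was Gpnmb, a gene of phagocytic macrophages next but one to Igf2bp3. Gpnmb was at 3.68 in the HLF-deficient tumour and below the floor in the WT tumour, at least 1.65-fold higher. The 2 lower by measured values were Gml and a neighbour of Golm1, Spata31d1a, at -1.01. The choice to name Albfm1, Gpnmb, Spata31d1a and the Ly6-type neighbours was made with their values known.

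**Figure D4:**
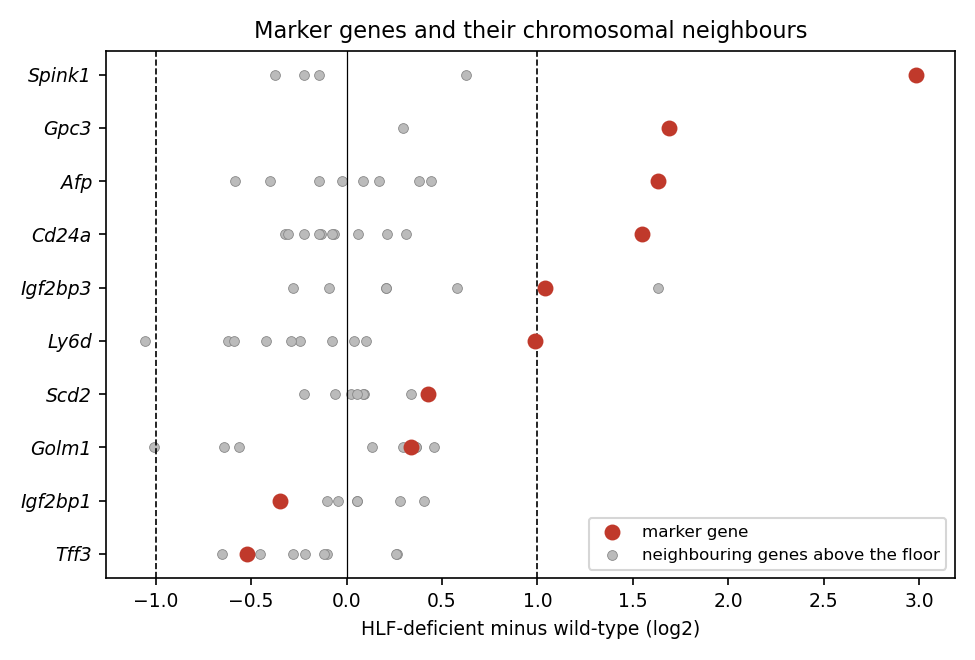
Difference HLF-deficient minus WT (log2, horizontal axis) of each marker (red) and of those of its 10 chromosomal neighbours that were above the floor in at least 1 tumour (grey); dashed lines mark 2-fold. Values below the floor are drawn as measured, among them the WT value behind the rightmost neighbour of Igf2bp3. For Spink1, Gpc3, Afp, Cd24a, Ly6d and Scd2 the marker lies to the right of its plotted neighbours, of which Gpc3 has only 1. For Scd2 the order changed with the scaling. After quantile normalization Scd2 was at 0.32 and its neighbour Scd3 at 0.48.

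Genes known to control the markers or to work with them were then compared, list by list. Of 13 measured regulators of the Afp gene, 0 passed 2-fold in either direction, with a median difference of 0.17 as deposited and 0.03 after quantile normalization. Zhx2 and Zbtb20, which repress Afp in the liver after birth, differed by 0.39 and 0.36 as deposited. They were at 0.51 and 0.48 with the arrays centred and at 0.29 and 0.19 after quantile normalization. These 2 genes were named for that role with their values known, and 10 of the 13 regulators had a positive difference. Cebpb, a C/EBP factor, was at 0.69 and the pioneer factor Foxa2 at 0.46, while Zfhx3 was at -0.14 and Foxa1 at -0.09 (0.03 with the arrays centred).

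Of 14 glypicans and heparan sulfate proteoglycan genes above the floor in at least 1 tumour, 0 passed 2-fold, with a median of 0.28 (0.12 after quantile normalization). Gpc6 and Notum, an enzyme that acts on Wnt proteins, were at 0.82 and 0.52, and Gpc2 and Gpc1 at -0.57 and -0.21. Of 15 measured protease inhibitor and trypsin genes, 10 were below the floor in both tumours and 0 of the other 5 passed 2-fold, with a median of -0.11 that was 0.04 after quantile normalization. In that list Spint2 was at 0.23, Spink2 at -0.20, Spink5 at -0.15 and Spink4 at -0.04, and the sign of Spink5 and Spink4 changed with the scaling.

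Of the 9 Igf2bp partners and Lin28-let-7 genes compared, 0 passed 2-fold, and the median of 0.11 became -0.04 after quantile normalization. Lin28a, an RNA-binding repressor of let-7, and the chromatin protein Hmga2, both fetal genes, were at -0.74 and -0.43. Both had low levels, near the floor. Lin28a was at 3.18 in the HLF-deficient and 3.92 in the WT tumour, and Hmga2 at 3.58 in the HLF-deficient and 4.01 in the WT tumour. The RNA-binding proteins Elavl1 and Hnrnpu were at 0.36 and 0.32. Of 13 Golgi genes, 0 passed 2-fold, with a median of 0.29 (0.16 after quantile normalization). The paralogue Golm2 and the glycosyltransferase Mgat5 were at 0.67 and 0.48, and Fut8 and Gorasp1 at 0.05 and -0.03, Gorasp1 with a sign that changed when the arrays were centred (0.09).

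Of 7 trefoil and Ly6-type genes, 0 passed 2-fold, and the median was -0.19; centring the arrays brought it to -0.07 and quantile normalization to -0.03. Ly6e and Lypd1 were at 0.40 and 0.09, and Lypd3 and Ly6k at -0.65 and -0.59. Of 9 desaturation genes, 0 passed 2-fold, with a median of -0.02 that was 0.10 with the arrays centred. Here Fads3 and Scd3 were at 0.72 and 0.34, and Elovl6, a fatty acid elongase, and Fads2 at -0.61 and -0.18.

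A further list of carcinoma and progenitor markers had 25 genes above the floor in at least 1 tumour. Of these, 7 were higher by 2-fold and 0 lower, with a median of 0.26. Over all genes compared, 1.5% were higher and 0.362% lower. This list too was chosen with earlier results of these data known, so it is no independent support for the marker counts. Cdh17, the liver-intestine cadherin, had a level of 5.88 in the HLF-deficient and 3.56 in the WT tumour, a difference of 2.31. Cd34, a surface sialomucin of progenitors and of capillarised endothelium, differed by 1.58. Robo1, Anxa2, Akr1c18, Prom1 and Slpi, at 1.24, 1.13, 1.10, 1.01 and 1.01, were the others; these 5 were named after their values were seen. After quantile normalization or loess 3 of the 7 stayed past 2-fold, Cdh17, Cd34 and Robo1. The lowest values were those of Mdk, a heparin-binding growth factor, and of Sall4, a fetal liver transcription factor, at -0.62 and -0.32. Both genes were near the floor, Mdk at 3.33 in the HLF-deficient and 3.94 in the WT tumour. Sall4 was at 3.04 in the HLF-deficient and 3.36 in the WT tumour. In the cell cycle list 0 of 21 genes passed 2-fold in either direction, with a median of 0.09 (-0.02 after quantile normalization). Its highest values were those of Rrm2 (0.45) and Bub1 (0.41), and its lowest those of Birc5 (-0.52) and Bub1b (-0.42).

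Several markers are also made by cells other than hepatocytes, so marker lists of those cells are given with them. Genes below the floor in both tumours, and Krt19 and Cd68, were named in addition to the highest and lowest of each list, with their values known. Hepatocyte genes were strongly expressed in both tumours, with 0 of 11 past 2-fold and a median of 0.03. For the biliary epithelium, which expresses Cd24a and Tff3, 1 of 8 genes was higher by 2-fold (Prom1, a call lost after quantile normalization and loess), while 3 of 8 had a positive difference and the median was -0.12. The log2 of the summed level was 8.98 in the HLF-deficient and 8.75 in the WT tumour; its brightest gene, Tspan8, was at 8.44 in the HLF-deficient and 8.20 in the WT tumour. Krt19 was at 3.19 in the HLF-deficient and 3.36 in the WT tumour, near the floor, and Cftr and Muc1 were below it in both. Of 9 B and plasma cell genes, relevant to Cd24a and Ly6d, 0 passed 2-fold; the log2 summed level was 7.12 in the HLF-deficient and 7.24 in the WT tumour, and Cd79a and Ms4a1 were below the floor in both.

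For pancreatic acinar cells, the main source of Spink1, 0 of 5 genes compared passed 2-fold, the log2 summed level was 7.27 in the HLF-deficient and 7.45 in the WT tumour, and Cpb1, Cel, Ptf1a and Reg1 were below the floor in both. For goblet cells, the main source of Tff3, 0 of 7 genes passed 2-fold, the log2 summed level was 6.70 in the HLF-deficient and 6.97 in the WT tumour, and Agr2, Zg16, Retnlb and Muc13 were below the floor in both. Macrophage and endothelial genes differed in both directions. Of 12 macrophage genes, 3 were higher by 2-fold by measured values (Cd14, Gpnmb and Cd68) and 2 with values set to the floor, which leaves out Gpnmb. Cd14 was at 1.86 and Cd68 at 1.53, while the lowest genes of the list, Clec4f and Vsig4, were at -0.37 and -0.36. The list median was 0.22 and the log2 summed level 10.11 in the HLF-deficient and 9.70 in the WT tumour. Of 12 endothelial genes, 1 was higher (Lyve1, at 1.21, or 3 genes with the arrays centred), and Emcn was at 0.98. The lowest genes of this list, Clec4g and Fcgr2b, were at -0.76 and -0.45. The list median was 0.25 and the log2 summed level 10.17 in the HLF-deficient and 9.95 in the WT tumour. The part of these cells in the marker differences was not tested.

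**Figure D5:**
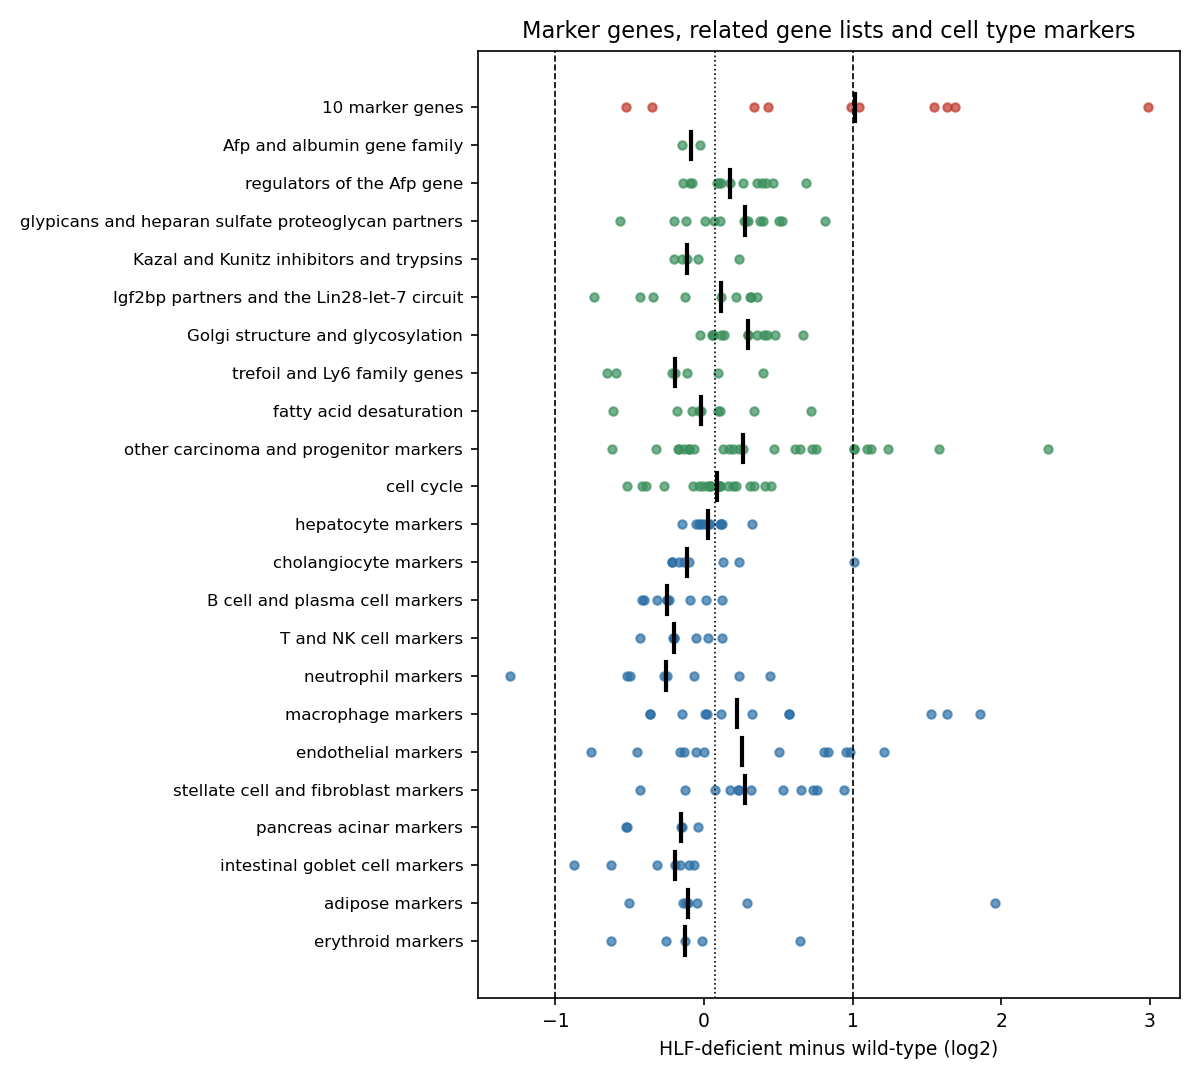
Difference HLF-deficient minus WT (log2, horizontal axis) of each gene above the floor in at least 1 tumour, for the 10 markers (red), 10 lists of related genes (green) and 12 lists of cell type markers (blue); black bars are list medians, dashed lines mark 2-fold, and the dotted line is the median of all genes compared, 0.07. The marker median lies at 1.01, while the medians of the lists lie between -0.26 and 0.29. Markers and lists were chosen with earlier results of these data known.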

How the data were processed

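Total RNA was labelled with a whole-transcript Affymetrix kit, per the labels' protocols. Per the submitters' processing notes, the authors made the deposited log2 values with RMA in Affymetrix Expression Console, for which no version is given. The sources used here do not say which arrays shared a normalization run. RMA compresses differences near background.

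Of 35556 probe sets, 21789 named 1 gene, 1621 several and 12146 none; only the first kind was used. The brightest probe set stood for a gene. The floor was the 95th percentile of 1240 chemoreceptor probe sets over both arrays, and genes at or above it on at least 1 array were compared. With 1 array per genotype there is no p-value, SD or interval between tumours; precision is limited by having 1 array each. Named genes are the 10 markers, Hlf and, for every list, at most 2 genes a direction; exceptions are stated. Symbols with no probe set of their own were left out of the lists. The markers, gene lists and rules were chosen with earlier results of these data known. Alternatives were centring of each array on its median, quantile normalization, loess (span 0.4), other probe set choices, other floors and rules of 1.5-fold and 4-fold. Python 3.11.15 and statsmodels 0.14.6 were used.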

Additional observations from a re-analysis of the deposited data

How the results depend on the processing

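The marker counts rest on 1 tumour sample per genotype, so every alternative concerns processing and none covers biological spread. As deposited, 5 markers were higher and 0 lower by 2-fold; over centring, quantile normalization, loess, other probe set choices and other floors the higher count was 5 or 6, the lower count 0, and the marker median between 0.97 and 1.14. Igf2bp1 dropped out of the comparison with the floor at the 99th percentile and with the mean of all probe sets, leaving 9 markers. Of 78 recomputed marker differences, 76 moved by less than 0.23 and kept their side of the rule, and none changed sign. The exceptions were Ly6d, at 1.11 with the arrays centred, and Spink1, at 2.27 with its WT value set to the floor. Many of the 78 could not move. Markers other than Igf2bp1 had 1 probe set, so other probe set choices left them unchanged, and a floor could alter the value of Spink1 alone. Centring, quantile normalization and loess were the settings able to move every marker. A rule of 4-fold left 1 marker, Spink1 by its measured WT value and by its bound. Over all genes, 219 were higher and 53 lower. The lower count was 32 with the arrays centred, which added 0.13 to the median difference of the genes compared. With a rule of 1.5-fold the counts were 930 higher and 457 lower, and with 4-fold 27 and 9. Gene lists near 0 change sign with the scaling. No paired analysis was possible because each genotype has 1 array, and no array could be left out.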

Other observations

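Several genes related to the markers lie on probe sets that name more than 1 gene, which the comparison did not use. The probe sets shared by the pancreatic amylase genes Amy2a2, Amy2b and Amy2a5 had differences between -1.41 and -0.84. The dimmest of them, at -1.41, passed 2-fold, with a level of 3.92 in the HLF-deficient and 5.33 in the WT tumour. The others were brighter and did not reach 2-fold, with the brightest at -0.84. Whether pancreatic tissue had a part in the Spink1 difference was not tested. The probe sets shared by Ly6c1 and Ly6c2, surface proteins of monocytes and endothelium, were at 0.74 and 0.46. The alpha- and beta-globin probe sets, a sign of blood in the tissue, were at 0.57 for both of Hba-a1 and Hba-a2 and at 0.47 for both of the Hbb genes. These probe sets were chosen after their values were seen.

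The other cell type lists had these median differences as deposited: stellate cells and fibroblasts 0.28, T and NK cells -0.20, neutrophils -0.26, adipose cells -0.11 and erythroid cells -0.13, with the erythroid and adipose medians changing sign under at least 1 scaling. After quantile normalization the T and NK cell median was -0.03 and the neutrophil median -0.11. For the erythroid and adipose lists the summed level went the other way from the median. Its log2 was 6.83 in the HLF-deficient and 6.63 in the WT tumour for erythroid genes. For adipose genes it was 8.04 in the HLF-deficient and 7.58 in the WT tumour. Fabp4, a fatty acid binding protein of adipocytes, endothelium and macrophages, was the 1 adipose gene past 2-fold, at 6.72 in the HLF-deficient and 4.76 in the WT tumour.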
